A study of Mus musculus with 14 samples.

Results

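Genes that encode subunits of the common beta chain and common gamma chain cytokine receptors were examined in mast cells sorted from mouse ear skin. The 10 genes were chosen by name from the 55487 genes of the count table: Csf2rb, Csf2rb2, Il3ra, Il5ra and Csf2ra of the beta chain family, and Il2rg, Il2ra, Il4ra, Il9r and Il13ra1, which pair with the gamma chain or with its alternative partner. All 10 were found by symbol, and all 10 passed the filter on low counts that left 21014 genes for testing.

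Messenger RNA was measured in 14 libraries, each made from up to 100 sorted cells. Libraries 1 to 5 (n = 5) held resident mast cells of untreated mice, and libraries 6 to 10 (n = 5) held resident mast cells of mice treated with MC903. Libraries 11, 13, 14 and 15 (n = 4) also came from treated mice and are labelled as bone marrow mast cells. MC903 is calcipotriol, a vitamin D analogue that produces a dermatitis resembling atopic dermatitis when painted on mouse skin. Since the protocol speaks of resident and integrin β7-positive cells of the ears, the bone marrow group was taken to be the integrin β7-positive mast cells of skin. Strain, sex, age and the number of mice are not given in the sources used here, and no label ties a library to an animal, so the p-values measure only the spread between these libraries.

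Interleukin-3, interleukin-5 and GM-CSF each bind an alpha chain of their own (encoded by Il3ra, Il5ra and Csf2ra), and the bound alpha chain recruits the shared beta chain, Csf2rb, which signals through the kinase JAK2 and the factor STAT5. Mice carry a further beta chain gene, Csf2rb2, whose product works with the interleukin-3 alpha chain only. The gamma chain, Il2rg, is shared by the receptors for interleukins 2, 4, 7, 9, 15 and 21 and signals through JAK3. The interleukin-4 alpha chain, Il4ra, pairs either with the gamma chain, in a receptor for interleukin-4 alone, or with Il13ra1, in a receptor for interleukin-4 and interleukin-13. Interleukin-3 is a growth factor of mouse mast cells, and interleukins 4 and 9 are known to act on them.

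Total counts per library spanned 17706764 to 27068993 for untreated resident, 13068078 to 25287381 for MC903 resident and 19978811 to 31781926 for bone marrow cells. The 9 mast cell markers listed (Kit, Fcer1a, Cpa3 and others) summed to 84922 to 110513 counts scaled to library size (CPM, median 87799) in untreated resident, 105180 to 160020 CPM (median 141602) in MC903 resident and 102802 to 155371 CPM (median 139241) in bone marrow libraries. The part of this difference in the results was not tested. A few libraries stood apart. Libraries 7 and 8 had the lowest totals and the most genes with a count (34560 and 35246). Bone marrow libraries 11, 13 and 14 had the fewest (16285, 16025 and 19817), against 32814 in library 15 and 21874 or more in every resident library. Bone marrow library 15 carried a summed level of 13608 CPM over 9 macrophage and dendritic cell markers, against 86.0 to 399 CPM in libraries 11, 13 and 14, 60.9 to 184 CPM in MC903 resident cells and 59.2 to 164 CPM in untreated resident cells. All 9 of these markers had counts in library 15, among them Csf1r at 1105 CPM and C1qb at 2262 CPM. No Csf1r read was counted in libraries 11 and 13, and library 14 reached 10.3 CPM. Cd68, another of these markers, exceeded its highest resident value of 68.2 CPM in every bone marrow library. Library 11 had 162.6 CPM of Cd68, library 13 had 74.2, library 14 had 69.6 and library 15 had 826. For Lyz2, library 14 rose to 257 CPM, beyond the resident maximum of 131 CPM. Libraries 11 and 13 fell below the resident minimum of 21.7 CPM in Lyz2, with 5.95 CPM and 0. Kit was at 762 CPM in library 15 and between 1195 and 1395 CPM in the other 3 bone marrow libraries. It was also low in untreated library 5, at 789 CPM against 1723 to 2033 CPM in the other 4, and in MC903 resident library 8, at 830 CPM against 1021 to 1828 CPM. Library 5 held the lowest untreated values of Il4ra, Csf2rb, Csf2rb2, Il3ra and Csf2ra and the highest of Il2rg. Eosinophil markers, of interest because eosinophils carry the interleukin-5 receptor, summed to at most 10.6 CPM in any library. That highest sum was in library 15, with Ear2 at 8.72 CPM. Prg2, Siglecf and Ear1 were at 0 in all 4 bone marrow libraries, and Siglecf reached 5.17 CPM in resident libraries. Ccr3 was at 3.10, 0, 4.61 and 1.72 CPM in bone marrow libraries 11, 13, 14 and 15, against at most 0.292 CPM in resident libraries. The 4 basophil markers listed summed to 1549 CPM in bone marrow library 11, against 294 to 823 CPM in the rest. Of these, Mcpt8 was at 980, 206, 83.6 and 46.7 CPM in bone marrow libraries 11, 13, 14 and 15 and at 3.16 to 57.3 CPM in resident libraries, while Cd200r3 was at 224 to 713 CPM in all 14 libraries. Itga2 went the other way, at 36.1, 36.1, 27.7 and 22.9 CPM in those bone marrow libraries and 53.1 to 140.5 CPM in resident libraries. Prss34 was highest in MC903 resident library 7, at 42.2 CPM. The 8 T cell markers summed to 0.0751 to 6.75 CPM (median 1.43) in untreated resident, 4.23 to 44.1 CPM (median 12.9) in MC903 resident and 4.11 to 84.1 CPM (median 35.9) in bone marrow libraries. Most of the highest T cell sum was Cd4, at 80.2 CPM in library 13, where Cd3e, Cd3d and Cd3g were at 0. Trac was at 3.90 CPM in library 13, its highest value in any library. The 5 neutrophil markers summed to 85.5 CPM in library 15 and to at most 5.08 CPM in any resident library. For each member, the difference without library 15 is given for at least 1 of the comparisons with bone marrow cells. In bulk libraries, fewer cells of a type and less RNA per cell cannot be told apart.

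The 2 beta chain genes lie close together on chromosome 15 of GRCm38, Csf2rb (ENSMUSG00000071713.6) at 78325752 to 78353847 on the plus strand and Csf2rb2 (ENSMUSG00000071714.7) at 78282507 to 78305721 on the minus strand. Their annotated messages had 14 exons each, and 2505 of 2631 aligned coding bases (95.2%) were identical, with 126 differences and 66 bases in gaps. The stretch of 120 coding bases that differed most is shown to let the pair be told apart, with the 22 differing bases in capitals. It covers coding bases 309 to 428 of Csf2rb and 312 to 431 of Csf2rb2, counted from 1 at the start codon:
Csf2rb: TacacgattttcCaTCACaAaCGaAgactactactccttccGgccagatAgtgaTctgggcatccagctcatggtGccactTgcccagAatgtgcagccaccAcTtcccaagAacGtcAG
Csf2rb2: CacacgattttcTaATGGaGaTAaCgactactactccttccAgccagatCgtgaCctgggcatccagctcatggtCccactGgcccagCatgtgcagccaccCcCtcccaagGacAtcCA
A stretch shared without any difference, at coding bases 2083 to 2202 of both genes, shows where a read cannot be assigned to either gene by its sequence:
Csf2rb and Csf2rb2: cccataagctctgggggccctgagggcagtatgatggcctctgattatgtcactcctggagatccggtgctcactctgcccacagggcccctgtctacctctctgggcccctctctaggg
Of all windows of 50 bases along the messages, 18.9% of those of Csf2rb and 19.0% of those of Csf2rb2 occurred unchanged in the other gene. For windows of 100 bases the shares were 7.16% and 7.20%. How the counting treated reads that map to both genes is not given in the sources used here, so the division of counts between Csf2rb and Csf2rb2 is uncertain to that extent.

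Levels of different genes were compared as TPM, a scale corrected for gene length and library size, computed from the counts and the length column of the table. The length given there for Csf2rb was 7277 bases, against 4764 in its annotated message, while Csf2rb2 had 4740 bases in both. With the shorter length Csf2rb would stand higher in TPM, and the alpha chains at a smaller percentage of the beta chains. In all 3 groups the same 3 genes led, both beta chains and the gamma chain, at group means between 211 and 383 TPM. Csf2rb was at 383 ± 118 TPM (SD, n = 5) in untreated resident cells, 247 ± 81.0 TPM (SD, n = 5) in MC903 resident cells and 262 ± 42.3 TPM (SD, n = 4) in bone marrow cells. Il2rg was at 369 ± 70.4 TPM (SD, n = 5), 211 ± 39.9 TPM (SD, n = 5) and 211 ± 69.8 TPM (SD, n = 4) in the same order. The ranges of these 3 genes overlapped within each group, so their order among themselves was not resolved, and the lowest of them did not overlap the next gene, Il4ra, in any group. By mean TPM over the 14 libraries, Csf2rb, Csf2rb2 and Il2rg stood at the 98.67, 98.6 and 98.5 percentiles of the genes tested.

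The ligand-binding alpha chains were lower. In untreated resident cells Il4ra was at 35.9 ± 14.7 TPM, Il3ra at 28.7 ± 10.7 TPM, Il5ra at 21.6 ± 3.92 TPM and Csf2ra at 10.6 ± 4.45 TPM (SD, n = 5 each). The ranges of Il4ra, Il3ra and Il5ra overlapped their neighbours, and Csf2ra did not overlap Il5ra above it. Il3ra, which binds interleukin-3, reached 4.21% ± 0.854, 4.98% ± 1.28 and 5.83% ± 1.99 of the summed beta chain TPM in untreated resident, MC903 resident and bone marrow cells (SD, n = 5, 5 and 4). Il9r, Il13ra1 and Il2ra had group means of at most 1.55 TPM, and their ranges overlapped one another in every group. Corrected for length, both beta chains and the gamma chain thus lay above every alpha chain, without overlap, in each group.

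**Figure D1:**
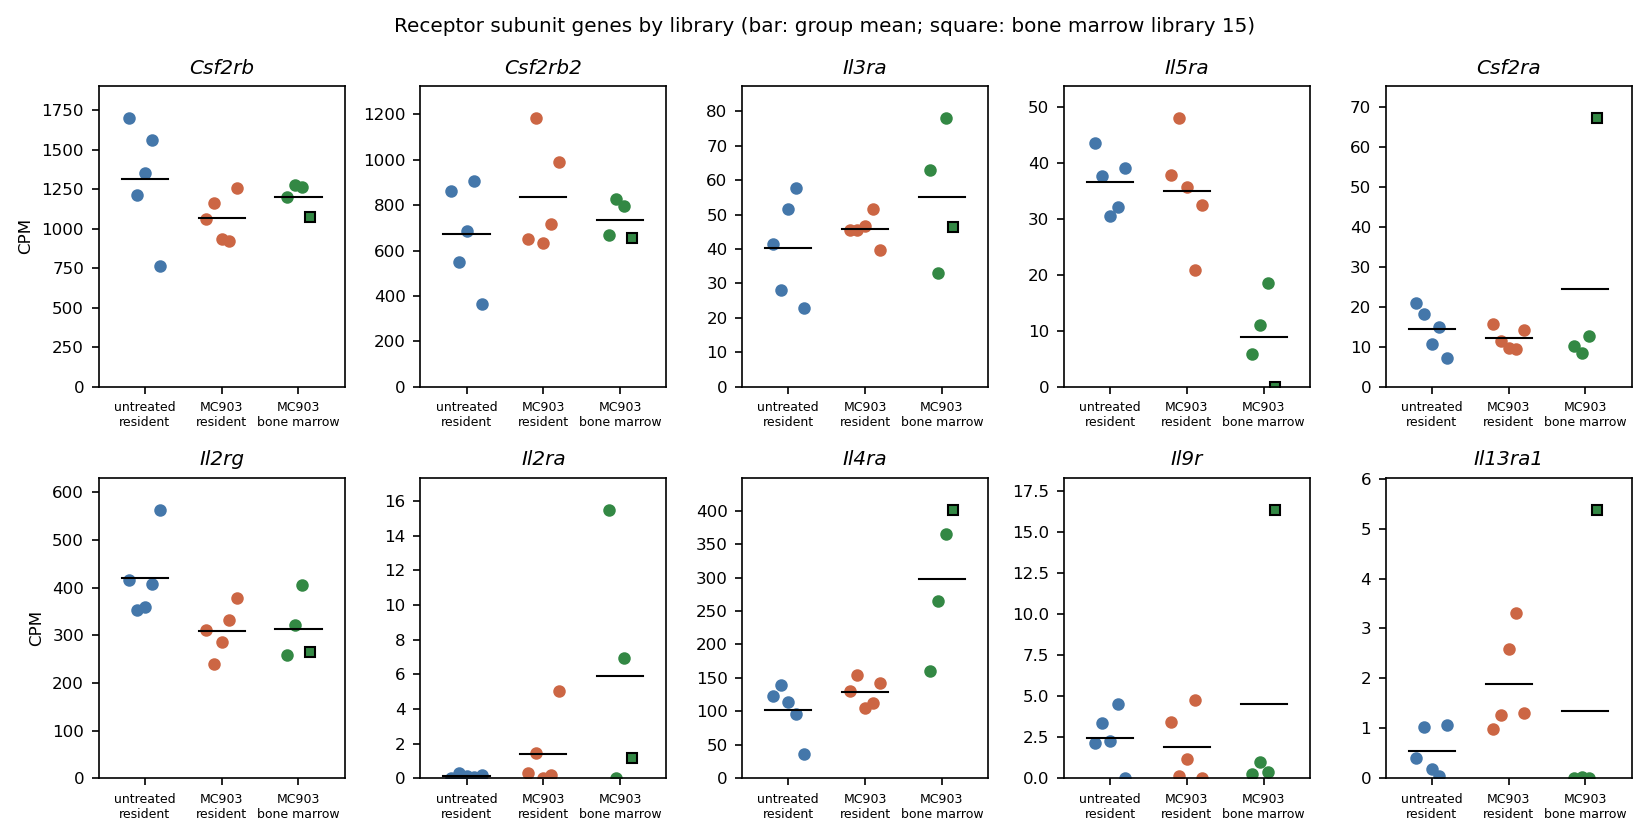
CPM of the 10 receptor subunit genes (vertical axes, 1 scale per gene, from 0) in each of the 14 libraries by group, with the group mean as a bar and bone marrow library 15 as a black-edged square. Il4ra was higher and Il5ra lower in all 4 bone marrow libraries than in any resident library, while Csf2ra, Il9r and Il13ra1 were high in library 15 alone among the bone marrow libraries.

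Between MC903 and untreated resident cells, 0 of 10 members passed the edgeR test and 0 of 10 had groups that did not overlap. Over all genes tested, 0.571% were called higher and 1.68% lower, and 5.33% did not overlap. At this background, counts of 0 among 10 genes are near what all genes show. An unadjusted edgeR p under 0.05 was reached by 1 of the 10 members, Il2rg, beside 12.6% of all genes tested. The DESeq2 Wald test and limma called 0 members, beside 5.44% and 6.46% of the genes each of them tested. The median log2 difference of the members was 0.06, beside 0.24 over all genes tested.

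Between bone marrow and MC903 resident cells, 1 of 10 members (Il4ra) was called higher and 0 lower, beside 1.32% and 0.952% of all genes, and 2 of 10 (Il4ra and Il5ra) did not overlap, beside 8.29% of all genes. Between bone marrow and untreated resident cells, 1 of 10 (again Il4ra) was called higher and 0 lower, beside 3.49% and 3.37% of all genes, and the same 2 genes did not overlap, beside 10.4% of all genes. The member medians were 0.22 and 0.61 on the log2 scale, beside -0.28 and -0.14 over all genes. With DESeq2 size factors the medians over all genes were 0.40, -0.43 and -0.14 in the 3 comparisons, so small member differences depend on the scaling.

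**Figure D2:**
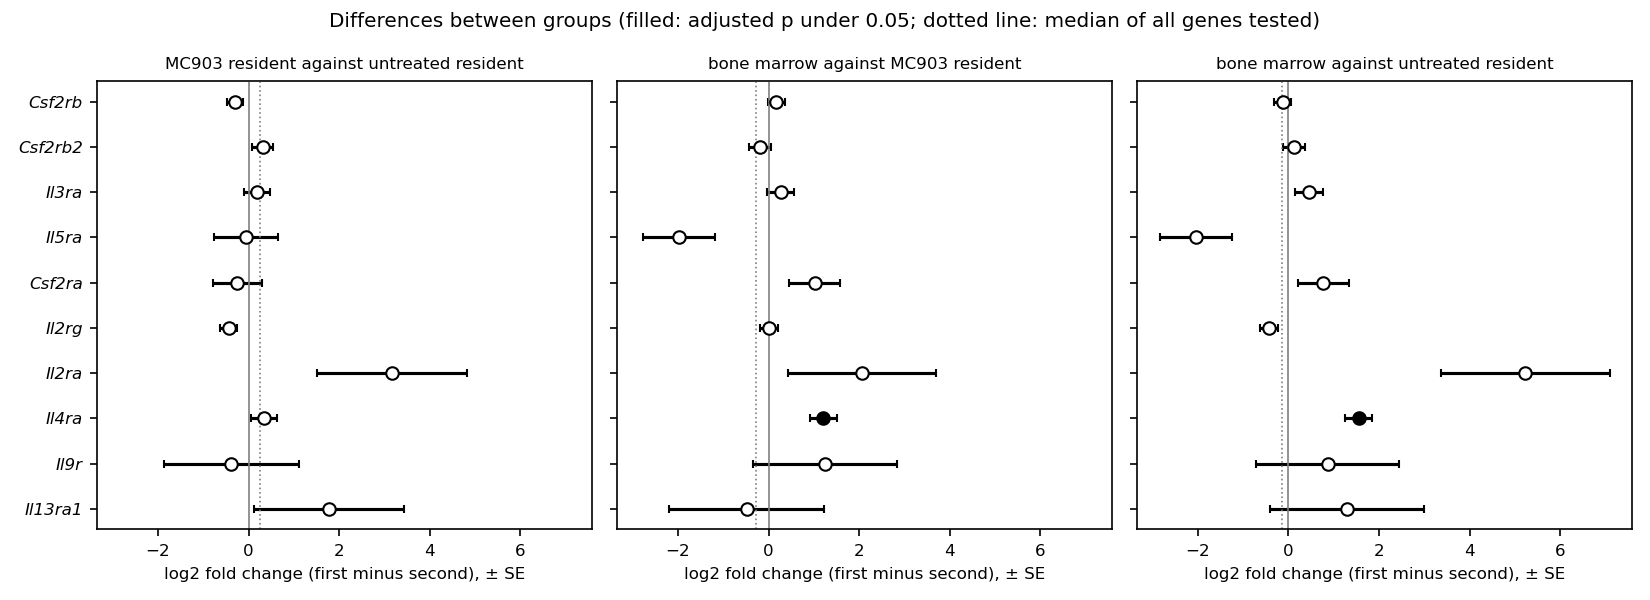
Log2 fold change (first group minus second, ± SE) of the 10 genes in the 3 comparisons, with filled points for an edgeR adjusted p under 0.05, a solid line at 0 and a dotted line at the median of all genes tested. Il4ra is the one filled point, at 1.21 and 1.55 in the comparisons with bone marrow cells, and Il5ra lies at -1.98 and -2.04 with wider errors.

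Il4ra, the chain that binds interleukin-4 in both of its receptors, was the one member that passed the test in any comparison (ENSMUSG00000030748.9, chromosome 7, 125552120 to 125579474, plus strand). It stood at 123, 139, 114, 95.8 and 36.5 CPM in untreated resident libraries 1 to 5. MC903 resident libraries 6 to 10 had 130, 154, 106, 112 and 142 CPM. Bone marrow libraries 11, 13, 14 and 15 had 160, 265, 365 and 401 CPM. Every bone marrow library lay above every resident library, with library 11 only a little above the highest resident value. The group means were 102 ± 39.7 CPM (SD, n = 5), 129 ± 20.1 CPM (SD, n = 5) and 298 ± 108 CPM (SD, n = 4).

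Bone marrow cells were thus 2.93-fold higher in Il4ra than untreated resident cells, a log2 difference of 1.55 ± 0.305 (SE, edgeR quasi-likelihood test, adjusted p = 0.00252 after Benjamini and Hochberg). This call was kept in all 9 fits that each left out 1 library (edgeR adjusted p from 0.000430 to 0.00871), with a log2 difference of 1.37 without library 15 and 1.34 without untreated library 5. Against MC903 resident cells Il4ra was 2.31-fold higher, a log2 difference of 1.21 ± 0.303 (SE, edgeR adjusted p = 0.0383). That call was close to the threshold: it was lost without any of libraries 6, 7, 8, 9, 10, 13, 14 or 15 (edgeR adjusted p from 0.0557 to 0.123), without libraries 7 and 8 together (0.178), with DESeq2 size factors (0.0802), with only genes at 10 CPM or more tested (0.0606) and with scaling factors taken from genes at 10 CPM or more on average (0.0884), while the log2 difference stayed between 1.03 and 1.39 over all alternatives. Without library 15 it was 1.04 (edgeR adjusted p = 0.0706). Resident cells of treated and untreated mice overlapped in Il4ra (log2 difference 0.34 ± 0.287, SE, edgeR adjusted p = 0.734, and 0.13 without untreated library 5). Beside Il4ra at 160, 265, 365 and 401 CPM, bone marrow libraries 11, 13, 14 and 15 had 180, 86.0, 399 and 13608 CPM of macrophage and dendritic cell markers, 1549, 791, 694 and 294 CPM of basophil markers and 4.11, 84.1, 30.6 and 41.1 CPM of T cell markers. The part of such cells in the Il4ra difference was not tested.

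Il5ra, the interleukin-5 alpha chain, went the other way without passing the test (ENSMUSG00000005364.11, chromosome 6, 106710357 to 106749037, minus strand). It stood at 43.4, 37.7, 30.4, 32.1 and 39.1 CPM in untreated resident libraries while MC903 resident libraries had 37.7, 47.9, 35.6, 20.9 and 32.5 CPM. In bone marrow libraries 11, 13, 14 and 15 it was at 5.91, 11.1, 18.5 and 0 CPM, all below the lowest resident value. A count of 0 in library 15 allows up to 0.152 CPM by counting error alone (3 counts). The group means were 36.6 ± 5.29 CPM (SD, n = 5), 34.9 ± 9.74 CPM (SD, n = 5) and 8.87 ± 7.85 CPM (SD, n = 4).

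The log2 difference in Il5ra was -1.98 ± 0.796 (SE, edgeR adjusted p = 0.204) between bone marrow and MC903 resident cells and -2.04 ± 0.798 (SE, edgeR adjusted p = 0.142) between bone marrow and untreated resident cells. Without library 15, where no read was counted, the differences were -1.56 ± 0.410 (SE, edgeR adjusted p = 0.0381) and -1.63 ± 0.412 (SE, edgeR adjusted p = 0.0166), so the call turned on the library with the lowest value. The DESeq2 Wald test, limma with quality weights and edgeR with no filter on low counts also called it in both comparisons. The marker sums given beside Il4ra hold for these libraries too. Of the basophil markers, Mcpt8 was highest in library 11, and Itga2 was lower in every bone marrow library than in any resident library. The part of such cell types in the Il5ra difference was not tested. As a percentage of the summed beta chain TPM, Il5ra was at 3.49% ± 1.51, 3.06% ± 0.773 and 0.736% ± 0.635 in the order untreated resident, MC903 resident and bone marrow cells (SD, n = 5, 5 and 4).

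The stretch of 250 bases before the annotated start of Il5ra (RefSeq, GRCm38.p6, minus strand, chr6:106749038-106749287) is shown because Il5ra was the one member lower in all bone marrow libraries, with a match to the GATA motif AGATAA in capitals:
Il5ra: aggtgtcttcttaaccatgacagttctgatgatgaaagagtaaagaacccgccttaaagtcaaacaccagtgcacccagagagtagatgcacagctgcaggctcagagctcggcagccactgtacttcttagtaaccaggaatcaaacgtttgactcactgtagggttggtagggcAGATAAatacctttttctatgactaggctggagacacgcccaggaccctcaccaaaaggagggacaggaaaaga
The motifs searched were AGATAA, TTCNNNGAA (the STAT5-type palindrome) and the STAT6-type palindrome with a spacer longer by 1 base, on both strands in the 300 bases around the start (250 before, 50 after) of the 9 members with a RefSeq promoter entry. AGATAA was found in Il5ra once and in Il9r 2 times, and in 11.18% of 32851 promoters of the table. TTCNNNGAA was found in Csf2rb2 (8.298% of all promoters) and the STAT6-type motif in Il5ra, after the start (6.953%). Il4ra, Il3ra, Csf2ra, Il2rg, Il2ra and Il13ra1 held none of the 3, which says only that these letters are not in that window. These matches are descriptions, not binding sites.

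Csf2rb, the beta chain shared by the 3 cytokines, overlapped between all groups at 1316 ± 361 CPM (SD, n = 5) in untreated resident, 1068 ± 144 CPM (SD, n = 5) in MC903 resident and 1202 ± 93.5 CPM (SD, n = 4) in bone marrow cells. Csf2rb2 was at 673 ± 224 CPM, 835 ± 241 CPM and 736 ± 87.9 CPM in the same order. Neither passed the test between MC903 and untreated resident cells, where the log2 differences were -0.30 ± 0.182 for Csf2rb (SE, edgeR adjusted p = 0.566) and 0.31 ± 0.226 for Csf2rb2 (SE, edgeR adjusted p = 0.668). The 2 estimates had opposite signs. Without untreated library 5 they were -0.44 (edgeR adjusted p = 0.134) and 0.16 (0.857). Without library 15, bone marrow minus MC903 resident cells was 0.23 for Csf2rb (edgeR adjusted p = 0.460) and -0.12 for Csf2rb2 (0.793) on the log2 scale, and bone marrow minus untreated resident cells was -0.080 (0.837) and 0.18 (0.672).

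The share of Csf2rb2 in the counts of both genes, which does not depend on the scaling between libraries, separated the resident groups. It was 33.6%, 31.2%, 33.7%, 36.8% and 32.3% in untreated resident libraries 1 to 5. In MC903 resident libraries 6 to 10 it was 38.0%, 50.4%, 40.4%, 43.7% and 44.1%, so every MC903 resident library lay above every untreated resident library. Bone marrow libraries 11, 13, 14 and 15 had 35.7%, 39.3%, 38.7% and 37.9% and lay between, overlapping both. The 95% Wilson interval of each share was at most 0.617 percentage points to a side, from 24331 to 60402 counts per library, and covers counting error only. The group means were 33.5% ± 2.10 (SD, n = 5), 43.3% ± 4.69 (SD, n = 5) and 37.9% ± 1.56 (SD, n = 4).

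MC903 resident cells were 9.82 percentage points above untreated resident cells in this share (exact two-sided permutation test, p = 0.00794, the smallest this design can give, Benjamini-Hochberg adjusted over 6 share tests 0.0238). Without libraries 7 and 8 the difference was 8.42 points (adjusted exact p = 0.0476). Leaving out any 1 untreated library kept a difference between 9.23 and 10.6 points, without overlap, but raised the adjusted exact p to between 0.0635 and 0.0952. Bone marrow cells were 4.39 points above untreated resident cells (exact permutation p = 0.0238, adjusted 0.0476), and this call was lost without library 1, 2, 3, 4, 5, 13, 14 or 15 (differences from 3.81 to 5.21 points, adjusted exact p from 0.0635 to 0.134). Leaving out a library from this comparison raises the smallest p that its exact test can give, so these losses alone do not show a weaker difference. Bone marrow minus MC903 resident cells was -5.42 points (exact permutation p = 0.0635, adjusted 0.0952), a difference that passed only without library 6 (-6.76 points, adjusted exact p = 0.0429). These comparisons share libraries.

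**Figure D3:**
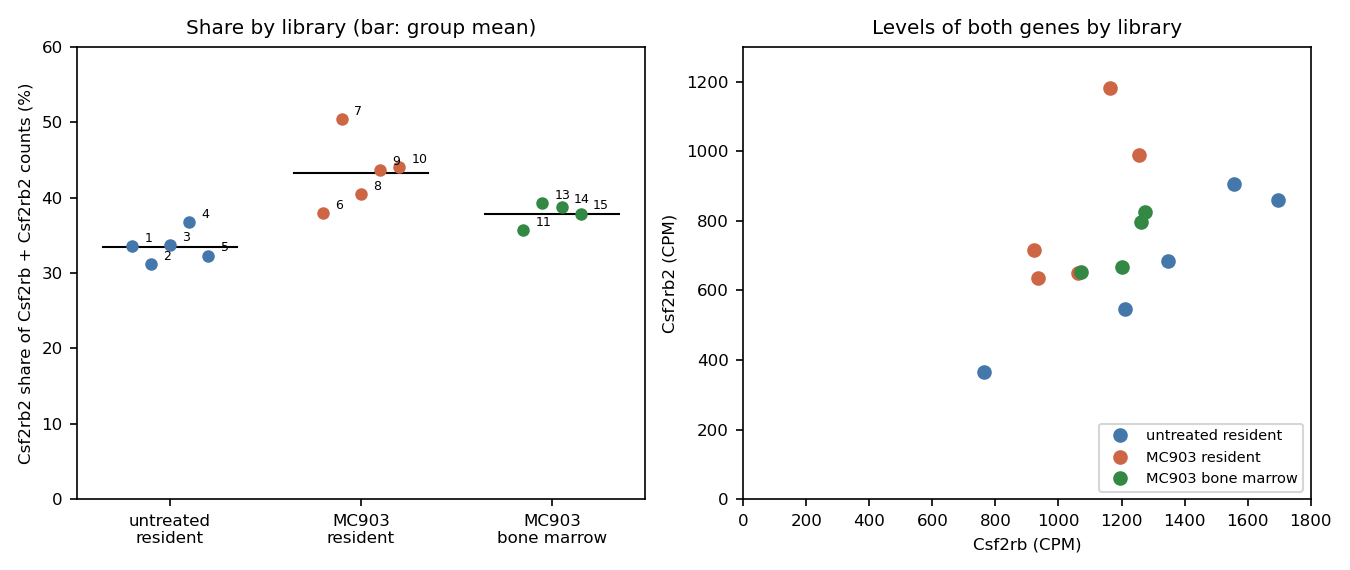
Left, Csf2rb2 as a percentage of the counts of Csf2rb and Csf2rb2 (vertical axis from 0) in each library, labelled by library number, with 95% Wilson intervals smaller than the points and the group mean as a bar. Right, CPM of both genes in each library, where MC903 resident libraries lie higher in Csf2rb2 for a given Csf2rb than untreated resident libraries, at shares of 38.0% to 50.4% against 31.2% to 36.8%.

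Il3ra (ENSMUSG00000068758.8, chromosome 14, 14346275 to 14356011, plus strand) was measured in every library, at 23.0 to 57.6 CPM in untreated resident, 39.6 to 51.6 CPM in MC903 resident and 33.1 to 78.0 CPM in bone marrow libraries. The groups overlapped, with log2 differences of 0.18 ± 0.288, 0.27 and 0.45 in the 3 comparisons (edgeR adjusted p = 0.894, 0.697 and 0.439). Without library 15 the 2 bone marrow differences in Il3ra were 0.35 and 0.52 (edgeR adjusted p = 0.496 and 0.290). Without library 5 the differences from untreated cells were 0.038 for MC903 resident and 0.30 for bone marrow cells (edgeR adjusted p = 0.979 and 0.612). Csf2ra, the GM-CSF alpha chain (ENSMUSG00000059326.7, chromosome 19, 61223957 to 61228429, minus strand), was at 7.24 to 21.1 CPM in untreated resident and 9.44 to 15.7 CPM in MC903 resident cells. Bone marrow libraries 11, 13 and 14 had 10.1, 8.35 and 12.7 CPM of Csf2ra, within the resident range, and library 15 had 67.3 CPM. The log2 difference in Csf2ra between bone marrow and MC903 resident cells was 1.02 ± 0.569 with library 15 (SE, edgeR adjusted p = 0.361) and -0.21 without it (edgeR adjusted p = 0.839).

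Il2rg, the gamma chain (ENSMUSG00000031304.18, chromosome X, 101264378 to 101268255, minus strand), was at 415, 353, 360, 407 and 563 CPM in untreated resident libraries while MC903 resident libraries had 312, 240, 287, 331 and 379 CPM. Bone marrow libraries had 259, 322, 405 and 264 CPM. Most untreated libraries were above most treated ones, but the ranges overlapped. The log2 difference was -0.44 ± 0.184 between MC903 and untreated resident cells (SE, edgeR adjusted p = 0.289) and -0.42 ± 0.196 between bone marrow and untreated resident cells (SE, edgeR adjusted p = 0.213). Without library 5 these were -0.30 and -0.29 (edgeR adjusted p = 0.504 and 0.379). Without library 15 the difference from untreated cells was -0.35 (edgeR adjusted p = 0.256), and that from MC903 resident cells was 0.093 (0.807).

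Il13ra1, the alternative partner of Il4ra (ENSMUSG00000017057.9, chromosome X, 36112110 to 36171259, plus strand), was barely measured. It had at most 1.07 CPM in untreated resident libraries and 0.990 to 3.31 CPM in MC903 resident libraries. Bone marrow libraries 11, 13 and 14 had 0, 0.0348 and 0 CPM, and library 15 had 5.38 CPM. The log2 difference in Il13ra1 between bone marrow and MC903 resident cells was -0.49 ± 1.71 (SE, edgeR adjusted p = 0.917) and -6.71 without library 15 (edgeR adjusted p = 0.101), and limma with quality weights called it (-4.80, adjusted p = 0.0370). Per kilobase, Il2rg made up at least 98.7% of the sum of Il2rg and Il13ra1 in every library. The mean share was 99.9% ± 0.0723 (SD, n = 5) in untreated and 99.6% ± 0.201 (SD, n = 5) in MC903 resident cells, a difference of -0.313 points without overlap (exact two-sided permutation p = 0.00794, adjusted 0.0238) that lost its call without any 1 untreated library (adjusted exact p from 0.0635 to 0.0952). It rests on few Il13ra1 counts, 1 to 25 per untreated and 19 to 68 per MC903 resident library. The shares still did not overlap with any 1 untreated library left out. Il13ra1 itself did not pass the test between the resident groups (log2 difference 1.78 ± 1.65, SE, edgeR adjusted p = 0.768). Bone marrow libraries 11, 13 and 14 had shares of 100%, 99.99% and 100%, above every resident library, while library 15 had 98.7%, below every resident library. Libraries 11, 13 and 14 were also the 3 with the fewest genes counted, and the part of this in their Il13ra1 counts was not tested. As a group, at 99.7% ± 0.644 (SD, n = 4), bone marrow cells did not pass the test against either resident group (adjusted exact permutation p = 0.865 in both). Without library 15 they were 0.393 points above MC903 resident cells (adjusted exact p = 0.0714) and 0.0800 points above untreated resident cells (adjusted exact p = 0.125), the latter with the sign turned.

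Il2ra, the high-affinity interleukin-2 alpha chain (ENSMUSG00000026770.5, chromosome 2, 11642807 to 11693193, plus strand), was at most 0.328 CPM in untreated resident libraries. It reached 5.06 CPM in MC903 resident library 10 and 15.5 and 6.96 CPM in bone marrow libraries 11 and 14, but was at 0 in bone marrow library 13 and MC903 resident library 8. The log2 difference between bone marrow and untreated resident cells was 5.23 ± 1.86 (SE, edgeR adjusted p = 0.1004), and the DESeq2 Wald test called it (adjusted p = 0.00709). Without library 15 that difference in Il2ra was 5.58 (edgeR adjusted p = 0.0802). Leaving out any 1 library gave 4.10 to 5.72, and the other alternatives gave 3.30 to 5.28. Bone marrow library 11, with the highest Il2ra, also had the highest basophil marker sum, whose part was not tested. Il9r, the interleukin-9 chain (ENSMUSG00000020279.10, chromosome 11, 32187541 to 32200279, minus strand), was at 0 to 4.56 CPM in untreated and 0 to 4.77 CPM in MC903 resident libraries. In bone marrow libraries 11, 13 and 14 Il9r was at 0.251, 1.01 and 0.384 CPM, and in library 15 at 16.4 CPM. Its log2 difference from MC903 resident cells was 1.24 with library 15 (edgeR adjusted p = 0.739) and -1.77 without it (edgeR adjusted p = 0.542).

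**Figure D4:**
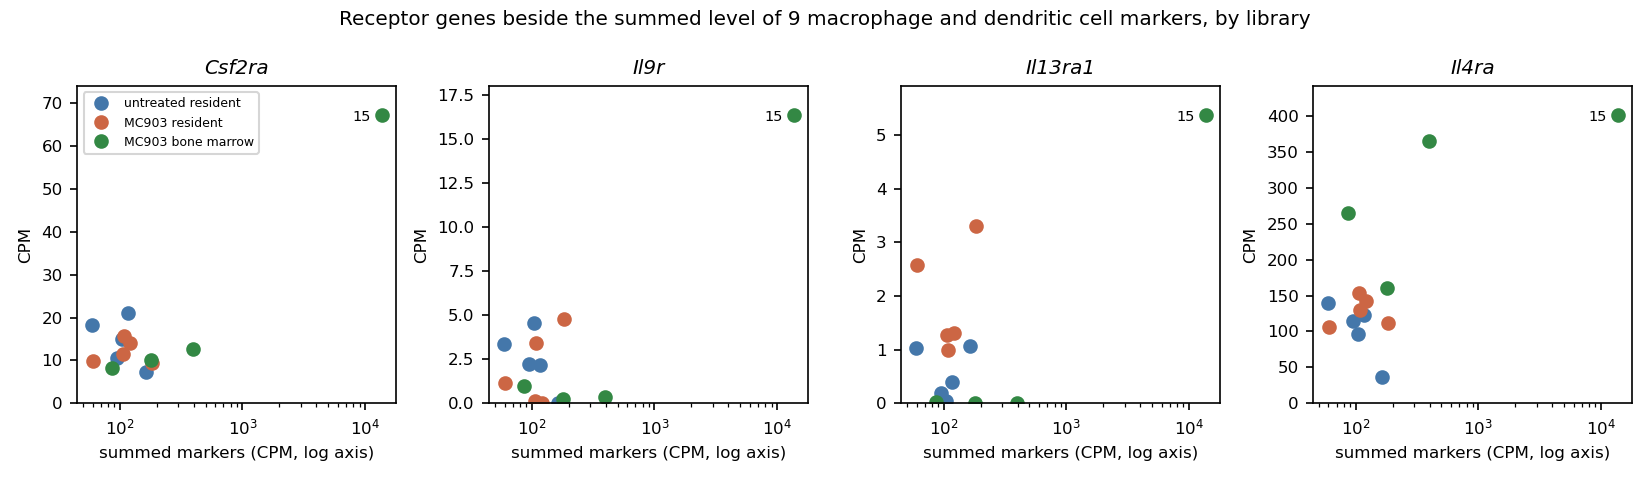
CPM of Csf2ra, Il9r, Il13ra1 and Il4ra (vertical axes from 0) against the summed CPM of 9 macrophage and dendritic cell markers (horizontal log axis) in the 14 libraries, coloured by group. Library 15, at 13608 CPM of the markers, holds the highest value of all 4 genes, and for Il4ra all 4 bone marrow libraries, from 160 CPM in library 11, lie above the highest resident value of 154 CPM.

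The 3 genes high in library 15, Csf2ra, Il9r and Il13ra1, were high there beside the macrophage and dendritic cell markers, and the part of those cells in these values was not tested. Without library 15 the log2 differences of these genes between bone marrow cells and either resident group were all negative, and none passed the test. Library 15 did not stand apart in the share of Csf2rb2.

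The other genes of these pathways were taken from 5 lists with 45 genes in all: ligands, further receptor chains, JAK kinases and STAT factors, negative regulators, and genes responsive to STAT5 or STAT6. Of the 10 ligands, 8 were tested, with 0 called between the resident groups, beside 2.25% of all genes tested. In each comparison with bone marrow cells 1 ligand, Il15, was called lower. Of all genes tested, 0.952% were called lower against MC903 resident cells and 3.37% against untreated resident cells. Il15 fell from 56.2 ± 10.4 CPM (SD, n = 5) in untreated resident and 37.9 ± 7.96 CPM (SD, n = 5) in MC903 resident to 15.3 ± 2.20 CPM (SD, n = 4) in bone marrow cells, without overlap. The log2 differences were -1.88 ± 0.287 against untreated (SE, edgeR adjusted p = 0.000218) and -1.31 ± 0.281 against MC903 resident cells (SE, edgeR adjusted p = 0.0137), the latter lost without library 13 (0.0505), without libraries 7 and 8 (0.0559) and with no filter on low counts (0.108).

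The ligand list holds the partners of members described above. Il4, the ligand of Il4ra, was at 205 ± 103 CPM (SD, n = 5), 228 ± 79.9 CPM (SD, n = 5) and 211 ± 63.0 CPM (SD, n = 4) in untreated resident, MC903 resident and bone marrow cells, with edgeR adjusted p-values of at least 0.890 in all 3 comparisons. Csf2, which encodes GM-CSF, was named after its values were seen, since its resident groups did not overlap. It stood at 47.7, 17.8, 31.96, 33.4 and 94.1 CPM in untreated resident libraries. MC903 resident libraries had 0.781, 3.42, 6.78, 4.62 and 0.0422 CPM, and Csf2 did not pass the test (log2 difference -3.85 ± 1.41, SE, edgeR adjusted p = 0.231).

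The further receptor chains were partners of the gamma chain together with related chains, Crlf2, the receptor chain for TSLP that pairs with Il7r, and Il13ra2, a decoy for interleukin-13. Of these 6, 4 were tested and 0 were called in any comparison. Of all genes tested, 2.25% were called between the resident groups. The shares for bone marrow against MC903 resident and against untreated resident cells were 2.27% and 6.87%. Between bone marrow and untreated resident cells 2 of the 4, Il21r and Crlf2, did not overlap, beside 10.4% of all genes. Of the 9 kinases and STAT factors, 0 were called between the resident groups, beside 2.25% of all genes tested. Between bone marrow and untreated resident cells 0 were called, beside 6.87% of all genes. In bone marrow against MC903 resident cells 1 was called higher, beside 1.32% of all genes. That gene was Jak2, the kinase of the beta chain, at 36.9, 50.5, 25.0, 17.0 and 33.9 CPM in MC903 resident and 86.9, 54.0, 94.9 and 107 CPM in bone marrow libraries. The log2 difference was 1.39 ± 0.314 (SE, edgeR adjusted p = 0.0200). The call was lost without library 6, 8 or 9 (edgeR adjusted p from 0.0641 to 0.0802), without libraries 7 and 8 (0.0505), with DESeq2 size factors (0.0524), with scaling factors from genes at 10 CPM or more (0.0550) and in a fit of these 2 groups alone (0.0739), and kept without library 15 (0.0383).

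Of the 8 negative regulators, Cish was lower and Ptpn2 higher in MC903 than in untreated resident cells. Cish, a SOCS family gene induced by STAT5, was at 422, 221, 380, 334 and 301 CPM in untreated and 145, 162, 95.2, 154 and 215 CPM in MC903 resident libraries. Its groups did not overlap, and the log2 difference was -1.10 ± 0.218 (SE, edgeR adjusted p = 0.00590), or -0.95 without libraries 7 and 8, where it missed the threshold (0.0703). Ptpn2, a phosphatase that acts on JAK kinases, was at 202 ± 43.9 CPM (SD, n = 5) and 402 ± 103 CPM (SD, n = 5), a log2 difference of 0.99 ± 0.213 (SE, edgeR adjusted p = 0.0111) that held without each library in turn. Socs1, an inhibitor of JAK signalling, was higher in bone marrow cells, at 175, 172, 110 and 90.3 CPM against 19.4 to 70.6 CPM in MC903 and 24.8 to 83.4 CPM in untreated resident libraries. The log2 differences in Socs1 were 1.52 ± 0.375 (SE, edgeR adjusted p = 0.0341) and 1.44 ± 0.375 (SE, edgeR adjusted p = 0.0212), and the calls held in 3 of 9 and 5 of 9 fits that left out a library, being lost without libraries 6, 7, 8, 9, 11 or 13 in the first comparison and 2, 3, 11 or 13 in the second. The first was also lost with DESeq2 size factors (edgeR adjusted p = 0.0551), with scaling factors from genes at 10 CPM or more (0.0531) and without libraries 7 and 8 (0.176). Ptpn2 was also called against untreated resident cells (log2 difference 0.78 ± 0.223, SE, edgeR adjusted p = 0.0361), a call kept under all 8 other processing alternatives (adjusted p from 0.00282 to 0.0444). Of the 9 fits that left out 1 library, it held in 2, without library 5 or 15, and was lost without 1, 2, 3, 4, 11, 13 or 14 (edgeR adjusted p from 0.0516 to 0.106).

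Of the 12 genes listed as responsive to STAT5 or STAT6, 9 were tested. Mcl1, which encodes a survival factor of the BCL2 family, was lower in MC903 resident cells, at 374, 285, 241, 367 and 637 CPM against 558, 1059, 1441, 1477 and 1464 CPM in untreated resident libraries. The groups overlapped through libraries 1 and 10, and the log2 difference was -1.66 ± 0.279 (SE, edgeR adjusted p = 0.00158). Bone marrow libraries were lower still against untreated cells, at 335, 222, 177 and 198 CPM of Mcl1 (log2 difference -2.36 ± 0.311, SE, edgeR adjusted p = 4.7e-05). Pim1, a kinase gene, was called higher in bone marrow than in untreated resident cells (70.9 ± 28.7 against 29.0 ± 14.95 CPM, SD, n = 4 and 5, log2 difference 1.29 ± 0.367, SE, edgeR adjusted p = 0.0355), and the call was lost without library 1, 3, 5, 11 or 14 (edgeR adjusted p from 0.0706 to 0.122) and in a fit of these 2 groups alone (0.0955). Between bone marrow and MC903 resident cells 0 of the 9 were called, beside 2.27% of all genes tested. Between the resident groups the genes called from these lists were thus Cish and Mcl1, lower, and Ptpn2, higher, in cells of treated mice.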

How the data were processed

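The authors deposited raw read counts per gene, as whole numbers, with exon coordinates and gene length per the file headers. Per the submitters' processing notes, STAR, featureCounts and the mm10 build were used; the versions, strand setting and treatment of reads mapping to several genes are not given in the sources used here. Per the labels' protocols, complementary DNA was made with SMART-Seq HT and libraries with Nextera XT, without molecular identifiers, so intervals and floors (3 counts) cover counting error only. Of the gene identifiers, 55094 matched GENCODE M21 on GRCm38 with the same version, and 55394 had a symbol.

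After filterByExpr on the groups (at least 10 counts, at least 15 in total), genes were scaled by TMM and fitted in 1 model of 14 libraries and 3 groups with edgeR 4.0.16 in R 4.3.3 (robust quasi-likelihood test), with p-values adjusted over 21014 genes and a threshold of 0.05. The biological coefficient of variation was 1.15. CPM used the TMM factors. TPM was computed from the counts and gene lengths. The SE of a log2 difference was its size over the square root of F. Shares were tested by exact permutation, two-sided. The motifs and sequence identities came from RefSeq and GENCODE sequences with Biopython 1.88. The scripts were tested on simulated data.

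The members, lists and tests were chosen with earlier results of these data known. All 10 members are named, and from each pathway list up to 3 called genes per comparison with the largest log2 difference and at least 5 CPM. The alternatives were DESeq2 1.42.0 size factors and Wald test, TMM factors from genes of at least 10 CPM, other filters, protein-coding genes, limma 3.58.1 with quality weights, only the groups compared, log2 ratios for shares, and leaving out libraries. The removal of libraries 7 and 8 was added for the shares after seeing the data.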

Additional observations from a re-analysis of the deposited data

Results flagged for a closer look

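In 5 of 36 groups of values checked, 1 library lay far from the rest of its group. The rule used flags about 1 in 20 by chance only for normally distributed values. Levels near 0 CPM and shares near 100% are not such values, so their chance rate is not known. The groups are not independent: 4 of the 5 are library 15, and the share given last for it restates its Il13ra1 value. Bone marrow library 15 had 67.3 CPM of Csf2ra against 8.35 to 12.7 CPM in libraries 11, 13 and 14, 16.4 CPM of Il9r against 0.251 to 1.01 CPM, and 5.38 CPM of Il13ra1 against 0 to 0.0348 CPM. In the same library Il2rg made up 98.7% of the sum of Il2rg and Il13ra1 per kilobase, against 99.99% to 100% in the others. That library also held 13608 CPM of macrophage and dendritic cell markers, whose part in these values was not tested. MC903 resident library 10 had 5.06 CPM of Il2ra against 0 to 1.45 CPM in the other 4 libraries of its group.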

How the results depend on the processing

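No paired analysis was possible because library numbers run on across the groups and no label ties libraries to animals. Between MC903 and untreated resident cells, 0 members were called under every alternative run. Between bone marrow and MC903 resident cells the count of 1 became 0 with DESeq2 size factors, with TMM factors from genes of at least 10 CPM, with only such genes tested, and without libraries 7 and 8 together. It became 2 with no filter and with the DESeq2 Wald test (1.54% and 8.58% of all genes tested), and 3 with limma and quality weights (9.86%, against 2.27% as reported); leaving out 1 library gave 0 to 1. Against untreated resident cells the count of 1 became 2 with no filter, 3 with the DESeq2 Wald test and 2 with limma (3.31%, 14.8% and 10.5% of all genes tested, against 6.87% as reported), and leaving out 1 library gave 1 to 2. The cause of these shifts was not tested.

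Leaving out 1 library, the Csf2rb2 share differed by 8.05 to 11.2 points between the resident groups, by -6.76 to -3.65 points between bone marrow and MC903 resident cells and by 3.81 to 5.21 points between bone marrow and untreated resident cells. The Il2rg share differed by -0.362 to -0.253, by -0.0368 to 0.393 and by -0.350 to 0.0800 points in the same order, and the last was 1.39 as a log2 ratio.

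Signs turned only for differences that had not passed the test. For Il2rg between bone marrow and MC903 resident cells (0.01 as reported), the log2 difference was -0.13 with DESeq2 size factors and in its Wald test, -0.14 with TMM factors from genes of at least 10 CPM, -0.15 with only such genes, -0.091 in a fit of those groups alone, -0.0038 with protein-coding genes and -0.13 without libraries 7 and 8. Leaving out 1 library gave -0.13 to 0.093. For Il5ra between the resident groups it was 0.10 with DESeq2 size factors and in its Wald test, 0.16 with TMM factors from genes of at least 10 CPM and with only such genes, and -0.16 to 0.19 leaving out 1 library. Csf2rb between bone marrow and MC903 resident cells gave -0.00025 with only genes of at least 10 CPM. With limma, bone marrow against untreated resident cells gave -0.16 for Csf2ra, -1.21 for Il9r and -2.45 for Il13ra1, and Il9r gave -0.035 against MC903 resident cells. Without libraries 7 and 8, Il9r gave 0.15 between the resident groups. Leaving out 1 library gave, between the resident groups, -0.41 to 0.021 for Csf2ra and -0.94 to 0.034 for Il9r. Between bone marrow and MC903 resident cells it gave -0.21 to 1.29 for Csf2ra and -1.77 to 1.85 for Il9r. Against untreated resident cells it gave -0.47 to 1.07 for Csf2ra, -0.026 to 0.26 for Csf2rb2, -2.16 to 1.27 for Il9r and -4.94 to 1.73 for Il13ra1. Il2ra, Il9r and Il13ra1 had 0 to 370 counts per library, which limits what their tests can show.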
